A study of Mus musculus with 68 samples.

Results

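The step from the oocyte to the 1-cell embryo was read by setting all 6 libraries of 1-cell mouse embryos labelled PN5 against all 7 libraries of mouse oocytes labelled FGO, 13 of the 68 libraries of the study. The oocytes were wild type (WT, n = 2), heterozygous for Ezhip (Het, n = 2) and knocked out for it (KO, n = 3). The 1-cell embryos were WT, mHet and mKO, as their labels have it, with 2 libraries each. Genotypes were pooled, because the question was the stage, and the WT libraries were read alone as a second comparison. The product of Ezhip, which lies on the X chromosome, is an inhibitor of PRC2, and PRC2 places the repressive mark H3K27me3. The labels used here leave out the strain, the age of the females, the deleted part of Ezhip, what drove the deletion and how many oocytes or embryos went into a library, and they do not say that libraries came from separate animals. Every library is bulk RNA, so fewer oocytes or embryos that hold a given RNA and less of that RNA in each cannot be told apart.

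A fully grown oocyte is nearly silent in transcription and carries a large store of maternal mRNA. During meiotic maturation and after fertilisation, much of that store is degraded, while some mRNAs that were held dormant with short tails gain poly(A) and are translated. The cytoplasmic polyadenylation element (CPE), a U-rich motif near the 3′ end that is bound by CPEB proteins, is the best known signal for this. The late 1-cell embryo begins its own transcription at a low level, and the main wave follows at the 2-cell stage. Smart-seq2, the full-length method used here, primes on poly(A), so the values describe RNA with a tail that can be primed, and fewer molecules cannot be told apart from shorter tails.

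Values are FPKM, reads scaled to the length of the gene and to the size of the library, and each stage came in a table of its own that was normalized apart. The stages share 14055 genes. Rn45s, the ribosomal RNA precursor, was removed, columns were rescaled to the same total, and 9305 genes reached 1 FPKM in at least 2 of the 13 libraries. Levels below are these rescaled FPKM, and log2 differences are 1-cell minus FGO, on means of log2(FPKM + 1), with the standard error (SE) from the spread within each stage. A gene was called when the difference was 2 or more in size (4-fold) and the 2 stages did not overlap in any library. Stage, table and library preparation cannot be told apart, so no p-value was computed between the stages and the calls are descriptions of large differences. Because totals were made equal, higher and lower mean a larger or smaller share of the library. RNA per oocyte or embryo was not measured, so a higher gene may have unchanged or less RNA per embryo.

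The libraries had 6843 to 8964 genes at 1 FPKM in FGO and 7821 to 8361 in 1-cell embryos. FGO libraries fell into sets by their numbers in the labels: numbers 1 to 4 (WT 1, Het 1, KO 1 and KO 2) had 6843 to 7869 genes and 1.34 to 1.55% of the summed FPKM in Rn45s. Numbers 5 to 7 (WT 2, Het 2 and KO 3) had 8620 to 8964 genes and 0.222 to 0.414%. The 1-cell libraries had 0.936 to 1.68% in Rn45s. Oocyte markers were high at both stages, with sums of 7579 to 15792 FPKM in FGO and of 3140.3 to 3777 in 1-cell libraries over the 8 of 10 that both tables hold. Over the 7 of 24 follicle cell markers in both tables, the sum was 4.82 to 19.5 FPKM in FGO and 15.7 to 29.1 in 1-cell libraries. Most of it was the single gene Cyp19a1, at 4.63 to 21.2 FPKM in FGO and 14.1 to 26.2 in 1-cell libraries before rescaling. In the FGO table, which holds all 24, 5 were at 0 and 15 under 1 FPKM in each library. Of those without a 1-cell value, Hsd3b1 reached 18.6, Inha 6.54 and Cyp11a1 5.66 FPKM in the highest FGO library. Of 9 sperm markers both tables held Ldhc, at 4.13 to 19.9 FPKM in FGO and 0.960 to 2.06 in 1-cell libraries.

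Ezhip (listed as AU022751) followed the labels at both stages. WT oocytes held 525 and 264 FPKM, Het oocytes 144 and 74.5, and KO oocytes 0, 0.169 and 0.10. At the 1-cell stage the WT libraries held 251 and 372, mHet 159.8 and 249.9, and mKO 0.950 and 0.124. The WT values of the 2 stages overlapped, with a log2 difference of -0.28.

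Over all 7 oocyte libraries, most large differences were in genes that were lower in the 1-cell embryo. Of 9305 genes, 307 were called lower (3.3%) and 49 higher (0.527%), or 356 in all (3.83%), against a median difference over all genes of 0.41. The balance turned with the oocyte libraries used: against numbers 1 to 4 alone 242 were lower and 432 higher, and against numbers 5 to 7 alone 516 and 4. Scaling by median ratios in place of totals put that median at 0.03 and gave 496 lower and 3 higher genes, so the medians of gene lists below are to be read beside 0.41. With that scaling the medians of translation initiation factors (-0.17), mRNA storage factors (-0.15) and subcortical complex genes (-0.04) lay below 0, and those of cyclins (0.44), Polycomb genes (0.32) and the Tcl1 cluster (0.57) stayed above it. The genes called lower took 16.7 to 22.6% of the summed FPKM in FGO libraries and 2.07 to 3.05% in 1-cell libraries. Those called higher took 0.145 to 0.336% and 0.934 to 1.25%. Of the lower genes 104 differed by 8-fold or more and 35 by 16-fold or more, and of the higher genes 1 reached 8-fold. Without the size threshold, 921 genes (9.9%) were lower and 2353 (25.3%) higher with no overlap between the stages. In the WT libraries alone 298 genes (3.2%) were called lower and 56 (0.602%) higher, of which 274 and 36 were also called over all libraries. The WT libraries are part of the whole, so the shared calls are no separate support.

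**Figure D1:**
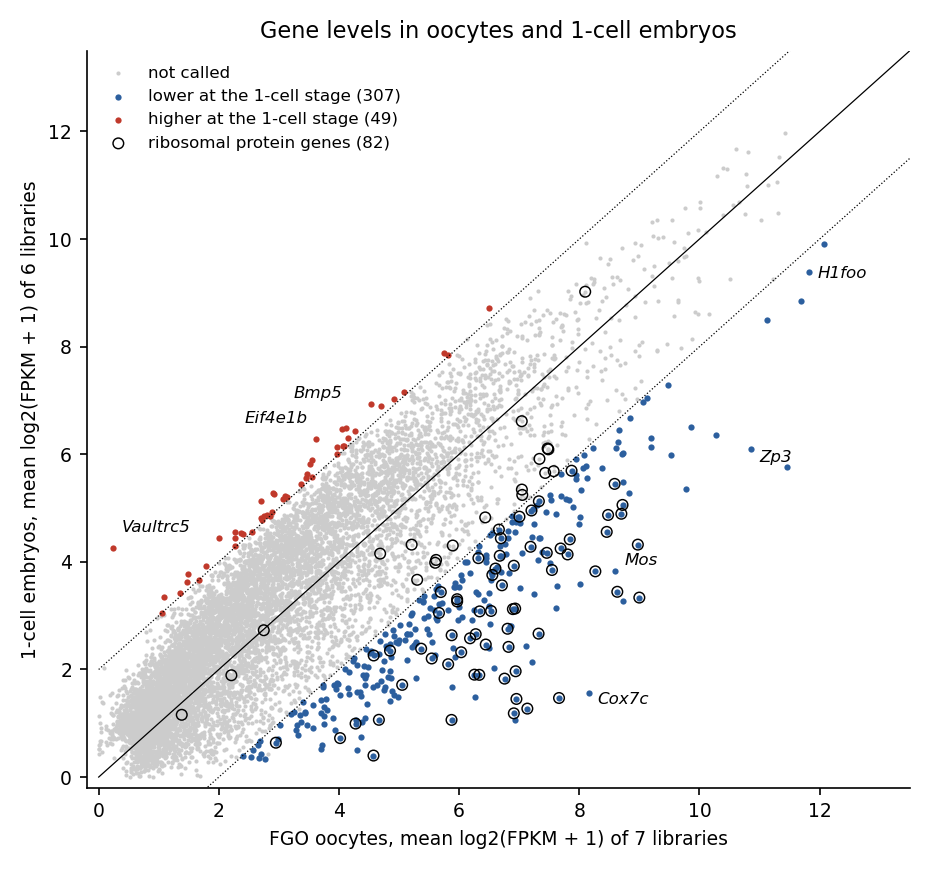
Mean log2(FPKM + 1) of each of 9305 genes in 7 FGO libraries (x axis) and in 6 1-cell libraries (y axis). Blue points are the 307 genes called lower and red points the 49 called higher; circles mark the 82 ribosomal protein genes, the solid line equality and the dotted lines a log2 difference of 2. Lower genes include some of the most abundant oocyte transcripts, whereas higher genes lie at low and middle levels.

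Genes of the egg coat and of factors that the oocyte secretes made up some of the most abundant RNA that was lower. Of 8 kept members of that list 5 were called lower (62.5%, beside 3.3% of all genes) and 0 higher, with a median of -2.93. Against oocyte libraries 1 to 4 and 5 to 7 alone, 5 and 4 were called lower. Zp3, a structural protein of the zona pellucida, ranged from 1229.5 to 2358 FPKM in FGO libraries (median 2278) and from 56.7 to 91.1 in 1-cell libraries (median 65.3). No 1-cell library came near the lowest oocyte library, and the log2 difference was -4.75 (SE 0.19). Zp2, which an egg protease cleaves after fertilisation in the block to polyspermy, held 747 to 1745 FPKM in oocytes (median 1508) against 72.2 to 94.8 in embryos (median 79.3). Its log2 difference was -3.91 (SE 0.20), and that of Zp1, the protein that crosslinks the zona filaments, was -3.24 (SE 0.15; 302 to 616 against 37.3 to 52.1 FPKM).

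Of the growth factor pair of the oocyte, Gdf9 was called lower and Bmp15 was not. Gdf9, which acts on the surrounding cumulus cells, held 1033 to 3804 FPKM in oocytes (median 3112) and 254 to 423 in 1-cell embryos (median 379), a log2 difference of -2.62 (SE 0.32). Bmp15, its partner, held 647 to 1475 FPKM (median 1182) and 1187 to 1840.5 (median 1542), with overlapping stages and a difference of 0.58 (SE 0.21). The oocyte levels of Gdf9 differed between the library sets: its difference was -3.24 against libraries 1 to 4 and -1.81 against libraries 5 to 7, where the size threshold was missed. Bmp15 was at 0.20 and 1.07 against the same sets.

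Genes whose mRNA is known to be stored dormant and translated during maturation parted into a few that were much lower and a majority that were higher on average. Of 15 listed members, all kept, 2 were called lower and 1 higher, beside 3.3% and 0.527% of all genes. A higher mean at the 1-cell stage was found in 12. Without overlap 9 were higher and 3 lower, beside 25.3% and 9.9% of all genes. The median was 0.88, beside 0.41 for all genes. With median ratio scaling it was 0.35, beside 0.03 for all genes. The distance from all genes turned on the oocyte set. Against libraries 1 to 4 the list median was 0.82, beside 0.67 for all genes, and against libraries 5 to 7 it was 0.96, beside 0.02. Mos, the kinase that starts the MAP kinase cascade and keeps the egg in metaphase II, held 269 to 543 FPKM in oocytes (median 437) and 8.35 to 22.8 in 1-cell embryos (median 13.4). The stages were far apart, at -4.76 (SE 0.30). Plat, tissue plasminogen activator, the classic example of an mRNA awakened by polyadenylation in mouse oocytes, ranged from 407 to 1145 FPKM in oocytes (median 974) and from 51.6 to 75.1 in embryos (median 63.4), a log2 difference of -3.54 (SE 0.27). Bub1b, a spindle checkpoint kinase, was just short of a call (-1.98, SE 0.15; 137 to 195 against 31.6 to 60.7 FPKM, with no overlap).

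On the other side, Dcp2, the enzyme that removes the cap of mRNAs under decay, held 2.84 to 9.38 FPKM in oocytes (median 5.87) and 21.8 to 34.7 in embryos (median 28.0), and was called higher by 2.10 (SE 0.24). Against oocyte libraries 5 to 7 alone its difference was 1.54 and the call was lost. Cnot6l, a deadenylase of the CCR4-NOT complex, lay just under the threshold before rounding (2.00, SE 0.39; 10.1 to 28.3 against 41.2 to 129.5 FPKM). Cnot7, the other kind of deadenylase in that complex, stood at 124 to 213 FPKM against 418 to 651 (1.72, SE 0.16). Orc6, a subunit of the origin recognition complex, stood at 68.3 to 122 against 242 to 366 FPKM (1.62, SE 0.15). In both genes every embryo library lay above every oocyte library.

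Some of the best known dormant mRNAs differed by less than 2-fold. Ccnb1, cyclin B1, the partner of CDK1, was at 466 to 569.5 FPKM in oocytes and 839 to 1149 in embryos, without overlap (0.87, SE 0.08). Btg4, the adaptor that recruits CCR4-NOT to maternal mRNAs, was at 1081 to 2627 against 2015 to 2956 FPKM, with overlap (0.44, SE 0.22). Spin1, a reader of methylated histone H3, was at 1084 to 1382 against 2151 to 2599 FPKM (0.88, SE 0.06). The plot of 12 genes by library shows the members that were lower beside those that were not.

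**Figure D2:**
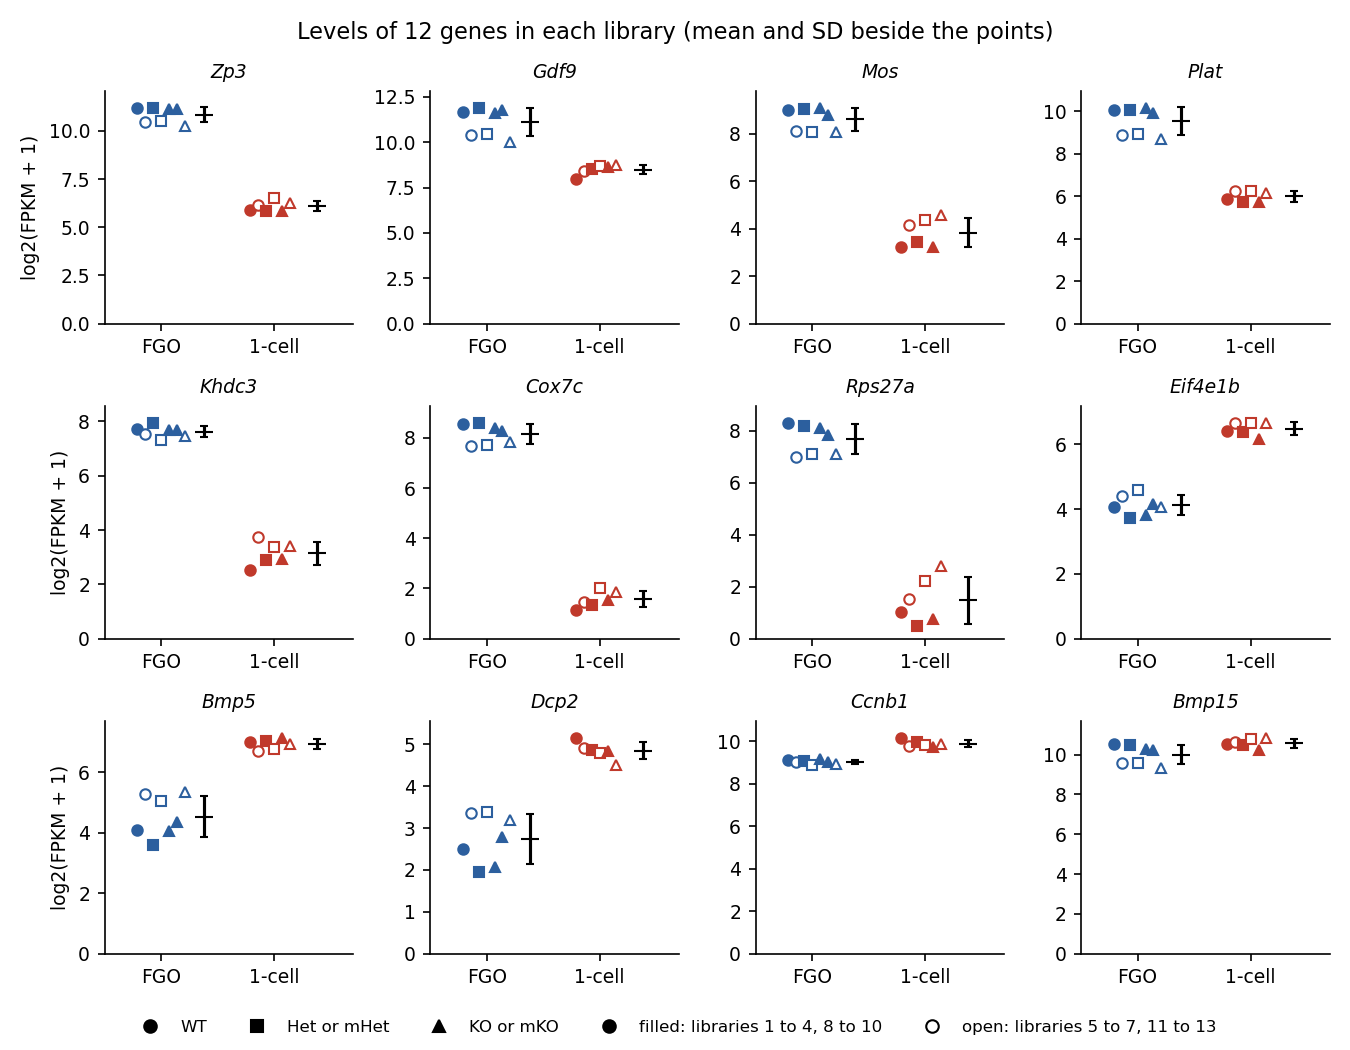
Levels of 12 genes as log2(FPKM + 1) in each library (y axis), with FGO libraries in blue and 1-cell libraries in red. Circles are WT, squares Het or mHet and triangles KO or mKO; filled points are libraries 1 to 4 and 8 to 10, open points libraries 5 to 7 and 11 to 13, and the bar beside each group is its mean and SD. In the panels of Zp3, Gdf9, Mos, Plat, Khdc3, Cox7c and Rps27a all 1-cell points lie below all oocyte points.

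By annotation, both genes that were lower and genes that were higher carried a CPE near the 3′ end. Their ends are shown because this element is the known signal by which dormant mRNAs gain a tail. Each stretch is 30 bases of the sense strand of the annotated transcript (GENCODE M21, GRCm38), with the last CPE (TTTTAT or TTTTAAT, searched on the sense strand in the last 100 bases of transcripts with a 3′ UTR) in capitals:
Plat, chr8:22782745-22782774, plus strand: gtatatttataTTTTAATctattttagttt
Gdf9, chr11:53437854-53437883, plus strand: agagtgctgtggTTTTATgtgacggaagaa
H1foo, chr6:115950157-115950186, plus strand: cgattctgaagcTTTTATtgtctaataagc
Cnot7, chr8:40493038-40493067, minus strand: tcttaaggtacaTTTTATatcaataaaaat
Orc6, chr8:85308005-85308034, plus strand: tggttttttaaaTTTTATttcactaaatgt
Btg4, chr9:51119797-51119826, plus strand: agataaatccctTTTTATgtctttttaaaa
Bub1b, chr2:118641553-118641582, plus strand: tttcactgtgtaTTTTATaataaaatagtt

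In the next set, the last 30 bases of the transcript are given, with the polyadenylation signal AATAAA in capitals. None of the 4 transcripts holds either form of the CPE in its last 100 bases, and all 4 genes were called lower:
Mos, chr4:3870657-3870686, minus strand: ttttaggaAATAAAgttaccacgaacttca
Cox7c, chr13:86044816-86044845, minus strand: aaaattgtaAATAAActaatgacataaaga
Khdc3, chr9:73104409-73104438, plus strand: ttaaagtattctAATAAAaaaaaaattgca
Dppa5a, chr9:78367052-78367081, minus strand: aAATAAAaaataaaattgaagtgattaaaa

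Plat, Gdf9 and H1foo were called lower with a CPE in the window, and Cnot7 and Orc6 were higher without overlap with one. Bub1b, at -1.98, and Btg4, at 0.44, held one too. Lack of a CPE was not limited to lower genes: Eif4e1b (2.37) and Bmp5 (2.40), both called higher, and Ccnb1 (0.87) held none in the window either. Of the 15 dormant mRNAs 7 held a CPE there. Among 8373 kept genes with an annotated 3′ UTR 1679 (20.1%) did. The share was 11.5% among the genes called lower, 27.9% among those called higher (12 of 43) and 20.3% among the rest. Genes with a CPE had a median difference of 0.60 and genes without one of 0.36. The motif is a match of letters, the transcript ends are annotated ones, and which end was used in these cells was not measured.

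Of the gene lists, ribosomal proteins held the most genes called lower. Of 82 kept genes 63 were called lower (76.8%, beside 3.3% of all genes) and 0 higher, 76 were lower without overlap, beside 9.9% of all genes, and the median was -3.19. Against oocyte libraries 1 to 4 and 5 to 7 alone, 60 and 62 were called lower. As a group they took 3.59 to 4.35% of the summed FPKM in oocyte libraries and 0.527 to 0.814% in 1-cell libraries. Rps27a, which is made as a fusion with ubiquitin, held 127 to 315 FPKM in oocytes (median 229) and 0.404 to 5.99 in embryos (median 1.47), a difference of -6.19 (SE 0.43). Rpl39, a short protein of the large subunit, ranged from 294 to 811 FPKM against 5.04 to 16.2 (-5.66, SE 0.34). Rps27 and Rpl23a were lower, at -5.86 and -5.50. Members differed in size and direction: Rpl15 stood at 32.1 to 41.1 FPKM in oocytes and 16.0 to 21.6 in embryos (-0.89, SE 0.08), and Rps27l, a paralog of Rps27, was higher without overlap (216 to 318 against 431 to 766 FPKM; 0.92, SE 0.15). Processed pseudogenes of these genes are numerous, and the treatment of reads that map to several places was not stated in the sources used.

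Ribosomal protein mRNAs are known for a 5′ terminal oligopyrimidine (TOP) start, a C followed by pyrimidines at the cap, through which growth signals control their translation. The first 30 bases from the listed start (RefSeq, GRCm38.p6, sense strand) are shown for some members, with the pyrimidine run in capitals:
Rps27, chr3:90213619-90213648, minus strand: CCTTTCCggcggtgacgacctccctacgag
Rpl35a, chr16:33056482-33056511, plus strand: CTCTTTCCgccatcttggcgcctgtggagg
Rps18, chr17:33955636-33955665, minus strand: CTCTCTTCCacaggaggcctacacgccgcc
Rpl35, chr2:39005102-39005131, minus strand: CTCTTTCTCTCgaaccaggctgcttcagcc
Rpl15, chr14:18270957-18270986, minus strand: CTTCCTTTCCTCTggcggcagccatcaggt

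By the listed start, 13 of 62 matched ribosomal protein genes (21.0%) began with C and at least 4 further pyrimidines, as did 226 of 7081 kept genes with a start (3.19%). A start listed a few bases off hides the motif. The run was present in Rps27, Rpl35a, Rps18 and Rpl35, lower, at -5.86, -4.93, -3.98 and -3.90, and in Rpl15 at -0.89. The 213 other kept genes with such a start had a median of 0.41, as had all genes, and 5 of them were called lower.

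The subunits of the mitochondrial respiratory chain followed with 30 of 79 kept genes called lower (38.0%, beside 3.3% of all genes). There were 0 higher calls, and the median was -1.72. Cox7c, a small subunit of cytochrome c oxidase, had the largest difference of all genes that were named: 204 to 388 FPKM in oocytes (median 313) and 1.22 to 3.02 in embryos (median 1.85), or -6.59 (SE 0.20). Uqcrq of complex III was narrow within oocytes, at 191 to 212 FPKM, against 6.72 to 14.5 in embryos (-4.07, SE 0.14). Ndufb4 and Ndufc1 of complex I and Atp5o of the ATP synthase were lower, at -4.67, -4.21 and -4.55. Cox17, the copper chaperone of cytochrome c oxidase, was lower as well (-5.08, SE 0.32; 114 to 195 against 0.696 to 5.87 FPKM). Against oocyte libraries 1 to 4 the list had 30 lower calls and a median of -1.33, and against libraries 5 to 7 it had 42 and -2.12.

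Other housekeeping complexes gave fewer lower calls. Of 34 proteasome subunits 4 were called lower (11.8%, beside 3.3% of all genes), and the median was -0.54. The 4 were Psmb1 (-3.52), Psmb5 (-3.44), Psmb4 (-2.88) and Psmc4 (-2.05). The first 3 belong to the catalytic core particle and Psmc4 is an ATPase of the regulatory particle, whose call was lost against oocyte libraries 1 to 4 (-1.79). Psmb1 stood at 139 to 232 FPKM in oocytes and 10.4 to 17.3 in embryos. Of 40 general transcription and elongation factors 4 were called lower (10%, beside 3.3% of all genes). All 4 are small subunits of RNA polymerase II: Polr2k (-4.41), Polr2i (-2.91), Polr2l (-2.72) and Polr2d (-2.17, or -1.97 against oocyte libraries 1 to 4). The list's median was 0.35, near that of all genes. Polr2k held 171 to 379 FPKM against 4.78 to 22.8.

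Among 51 translation initiation factors 5 were called lower (9.80%) and 1 higher, beside 3.3% and 0.527% of all genes, with a median of 0.21. Of the lower ones, Eif3g (-3.29), Eif3l (-2.78), Eif3k (-2.37) and Eif3m (-2.30) are subunits of eIF3, which holds the small ribosomal subunit, and Eif1ax (-2.21, or -1.87 against oocyte libraries 5 to 7) takes part in start codon choice. Eif3m was tight at both stages, at 112 to 151 FPKM in oocytes and 22.2 to 28.8 in embryos. The higher one was Eif4e1b, a germ line form of the cap binding protein eIF4E that takes part in mRNA storage. It held 12.4 to 23.1 FPKM in oocytes (median 15.7) and 70.1 to 101 in embryos (median 92.0), a difference of 2.37 (SE 0.14). Its call held against each set of oocyte libraries, at 2.54 and 2.13.

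Of 61 splicing factors 2 were called lower, Snrpd2 of the Sm ring (-4.78) and Sf3b5 of the U2 particle (-2.38), a share (3.28%) near that of all genes (3.3%). A further 24 were higher without overlap, beside 25.3% of all genes, and the median was 0.59. Outside the lists, Upp1, the uridine phosphorylase of pyrimidine salvage, held 96.0 to 137 FPKM in oocytes and 0.139 to 2.96 in embryos (-5.88, SE 0.31). Upp1 was nearly level within oocytes. Of 17 heat shock genes 1 was called lower (5.88%, beside 3.3% of all genes). It was the constitutive chaperone Hspa8, at 229 to 314 against 31.4 to 63.0 FPKM (-2.57, SE 0.16).

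Maternal effect genes differed within their own complex. The subcortical maternal complex is a structure under the egg membrane that the embryo needs for its first divisions. Of 16 kept genes of this complex and the Nlrp family 2 were called lower (12.5%, beside 3.3% of all genes) and 0 higher. The median was 0.49. Khdc3 held 157 to 246 FPKM in oocytes (median 202) and 4.82 to 12.2 in embryos (median 7.94), a difference of -4.48 (SE 0.19). Tle6 held 291 to 1042 FPKM against 38.6 to 122 (-2.89, SE 0.39). Ooep, a further core member, came just short at -1.97 (SE 0.49), and its oocyte levels ran from 938 to 5332 FPKM, so that it was at -2.93 against libraries 1 to 4 and -0.68 against libraries 5 to 7. Nlrp5, a core protein of the complex, had overlapping levels of 138 to 251 and 139 to 224 FPKM (-0.12, SE 0.16).

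Further egg genes called lower were abundant in oocytes. Dppa5a, an RNA binding protein of germ cells and pluripotent cells, held 658 to 1229 FPKM (median 944) against 23.1 to 71.6 (median 38.5), or -4.43 (SE 0.31). Gja4, the connexin of the junctions between oocyte and cumulus, was lower, at -2.33 (SE 0.23), with 177 to 327 against 26.8 to 64.8 FPKM. Fbxw21, an oocyte F-box protein, was at 583 to 864 against 142 to 174 FPKM (-2.19, SE 0.11), or -1.96 against oocyte libraries 5 to 7, short of a call. Cpsf4l, which resembles a cleavage and polyadenylation factor, was at 378 to 814 against 41.8 to 103 FPKM (-3.04, SE 0.27). All 4 had stages that did not overlap. Zar1, a maternal RNA binding protein, was close to the threshold at -1.92 (SE 0.25). Cd9, the membrane protein needed for fusion with sperm, stood at -1.61 (SE 0.28). Of 9 sperm binding and activation genes 0 were called, beside 3.83% of all genes.

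Among 25 histone variants and chaperones 2 were called lower (8%) and 1 higher, beside 3.3% and 0.527% of all genes, with a median of 0.67. H1foo, the linker histone of the oocyte, ranged from 2206 to 5361 FPKM in oocytes (median 4193) and from 508 to 1319 in embryos (median 596), or -2.44 (SE 0.29). Against oocyte libraries 5 to 7 it was at -1.87 and the call was lost. H2afx, the histone H2A variant marked at DNA breaks, was lower, at -2.95 (SE 0.33; 19.2 to 55.3 against 1.38 to 7.10 FPKM). Hist1h2ba, a testis and oocyte form of H2B, was higher by 2.15 (SE 0.28), with 0.476 to 3.45 against 7.56 to 16.3 FPKM. In the WT libraries alone Hist1h2ba was at 1.64, below the threshold. Of 45 replication-dependent histone genes, Hist1h2bc (-3.48) and Hist1h2bg (-2.76) were called lower, a share (4.44%) near that of all genes (3.3%). Hist1h2ba, also on that list, was its 1 higher call. Most replication-dependent histone mRNAs end without a poly(A) tail, and these families share sequence, so their values are uncertain. Slbp, the protein that binds the end of those mRNAs, was at 447 to 817 against 1086 to 1549 FPKM (1.12, SE 0.14).

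Of the 49 genes called higher, 3 belonged to the gene lists: Eif4e1b, Dcp2 and Hist1h2ba. Bmp5, a ligand of the bone morphogenetic protein family, held 11.2 to 39.8 FPKM in oocytes (median 19.4) and 104 to 141 in embryos (median 124), a difference of 2.40 (SE 0.27). Map2k4, a kinase of the JNK stress pathway, was narrow within embryos, at 115 to 121 FPKM, against 13.3 to 50.8 in oocytes, a 4.13-fold difference of the means. Lin7c, a scaffold protein of cell polarity, stood at 3.81 to 10.6 against 33.2 to 44.1 FPKM (2.38, SE 0.19). In these 3 genes the oocyte libraries 1 to 4 were below libraries 5 to 7 on average, and the embryos were above both.

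Ankrd49, an ankyrin repeat protein, was higher by 2.67 (SE 0.42), with 4.63 to 27.3 against 57.9 to 93.3 FPKM. Stradb, a pseudokinase partner of LKB1, was at 2.16 (SE 0.24; 10.2 to 32.5 against 78.0 to 92.6 FPKM). Nsun3, which methylates a mitochondrial tRNA, was at 2.15 (SE 0.27; 1.14 to 7.21 against 15.0 to 28.1 FPKM). The other named genes were Glcci1 (2.45), Myef2 (2.30), the transporter family member Slc35a5 (2.29), Ccdc42 (2.29), the microtubule binding protein Clasp2 (2.26), the import subunit Timm21 (2.18) and the zinc finger gene Zfp873 (2.17). All of them were called in WT libraries alone as well, which the rule for named genes required.

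Vaultrc5, a vault RNA of 143 annotated bases, had the largest difference in this direction (4.03, SE 0.44). Its level was 0 to 0.528 FPKM in oocytes and 6.92 to 46.0 in embryos, without overlap. Vault RNAs are made by RNA polymerase III and carry no poly(A) tail, and FPKM of so short a transcript rest on few reads, whose number cannot be recovered from the values. With Eif4e1b it was the only gene called higher against each oocyte library set taken alone.

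The count of higher genes rested on the oocyte library set, and that of lower genes did so less. Against oocyte libraries 1 to 4, 432 genes were called higher (4.64%) and 242 lower (2.6%), with a median over all genes of 0.67. Against libraries 5 to 7, 4 genes were higher (0.043%), Eif4e1b, Vaultrc5, Gm1965 and Lars2, and 516 lower (5.55%), with a median of 0.02. Of the 49 higher genes 46 were 2-fold or more above libraries 5 to 7, where their median was 1.54 beside 2.61 against libraries 1 to 4. Of the 307 lower genes 215 were called against each set, and their difference against libraries 5 to 7 was -1.63 or lower in all 307, with a median of -3.04. The call rule used libraries 5 to 7 and required no overlap. The direction of called genes against that set was thus fixed in advance, and these sizes are no separate support for the calls. Libraries 5 to 7 were also those with more genes at 1 FPKM and less Rn45s, and the part of these differences in the result was not tested.

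**Figure D3:**
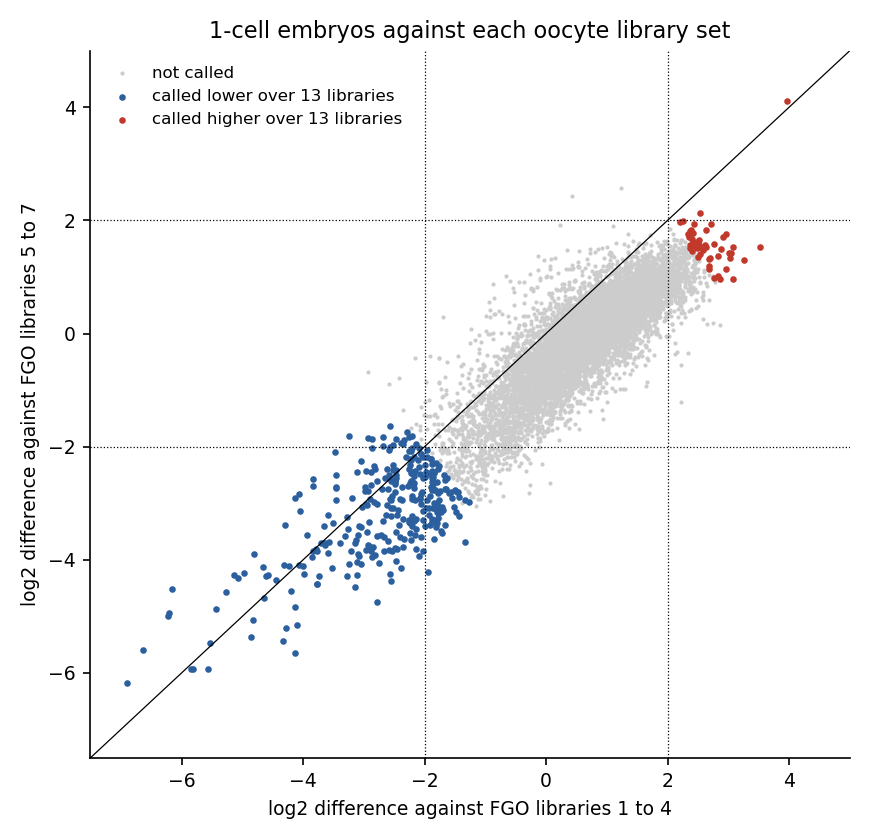
Log2 difference of each gene between 6 1-cell libraries and FGO libraries 1 to 4 (x axis) or FGO libraries 5 to 7 (y axis), on log2(FPKM + 1). Blue points are the 307 genes called lower and red points the 49 called higher over all 13 libraries, the solid line marks equality and the dotted lines a difference of 2; most red points pass the threshold on the x axis and miss it on the y axis, where their median is 1.54.

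Factors that degrade mRNA had a median above that of all genes, and factors that store it did not. Of 30 kept mRNA decay factors 1 was called higher (Dcp2, above) and 0 lower, beside 0.527% and 3.3% of all genes. Without overlap 13 were higher, beside 25.3% of all genes, and the median was 0.74. Of 29 storage and polyadenylation factors 1 was higher (Eif4e1b) and 1 lower (Cpsf4l), with a median of 0.14. The lower share (3.45%) was near that of all genes (3.3%). Ythdf3, a reader of methylated adenosine in mRNA, was at 8.54 to 22.8 against 42.5 to 53.0 FPKM (1.60, SE 0.22). Wtap, a subunit of the enzyme that writes this mark, passed the size threshold at 2.01 (SE 0.45) but its oocyte levels of 24.1 to 243 FPKM overlapped those of embryos (174 to 410.2), so it was not called. Of 17 genes of this modification 0 were called, beside 3.83% of all genes, and the median was 0.58, beside 0.41 for all genes.

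Few cell cycle genes were called, and few are called among all genes (3.83%). Of 21 cyclins 0 were called, 10 were higher without overlap, beside 25.3% of all genes, and the median was 0.93. Ccnk, the cyclin of the transcription kinases CDK12 and CDK13, was at 2.49 to 6.46 against 13.9 to 23.1 FPKM (1.98, SE 0.18). Ccnb3, a cyclin that acts at anaphase I in oocytes, was at 2.29 to 8.00 against 16.7 to 21.4 FPKM (1.87, SE 0.26). In both the stages were apart. Ccna2, cyclin A2 of S phase and mitosis, was at 30.7 to 42.1 against 93.5 to 118 FPKM (1.66, SE 0.08). Mos was the single call among 31 meiotic regulators, whose median was 0.57. Rfc2, a subunit of the clamp loader, was the single call among 39 replication genes (8.89 to 20.5 against 1.23 to 3.27 FPKM), whose median was 0.46; its call was lost against oocyte libraries 1 to 4 (-1.88). Among 30 spindle and checkpoint genes 0 were called, with a median of 0.60.

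Polycomb genes were higher on average as shares of the library, short of the threshold. Of 24 kept genes of PRC2, PRC1 and their partners 0 were called, beside 3.83% of all genes. Without overlap 13 were higher and 0 lower, beside 25.3% and 9.9% of all genes, and the median was 0.84. Ezh2, the catalytic subunit of PRC2, was at 62.1 to 89.8 FPKM in oocytes and 112 to 163 in embryos (0.85, SE 0.13). Suz12, a core subunit, was at 1.44 (SE 0.28) and Eed, which binds the mark, at 1.21 (SE 0.26). Bmi1, a PRC1 subunit, was at 25.1 to 52.4 against 118 to 166 FPKM (1.90, SE 0.19), and Aebp2, an accessory subunit of PRC2, at 0.695 to 2.57 against 4.82 to 12.6 (1.80, SE 0.26). Against oocyte libraries 5 to 7 the median of the list was 0.61, beside 0.02 for all genes.

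Genes of the Tcl1 cluster, oocyte-stored relatives of an Akt coactivator, were all higher without overlap, 4 of 4, beside 25.3% of all genes. Their differences ran from 1.07 to 1.20, and 0 were called, beside 3.83% of all genes. Tcl1 itself held 1231 to 1949.5 FPKM in oocytes and 3074 to 3578 in embryos. Tcl1b4 held 126 to 212 against 312 to 407 FPKM. These genes are alike in sequence, so reads may be shared between them. The direction was the same against each oocyte set, with list medians of 0.94 and 1.34.

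**Figure D4:**
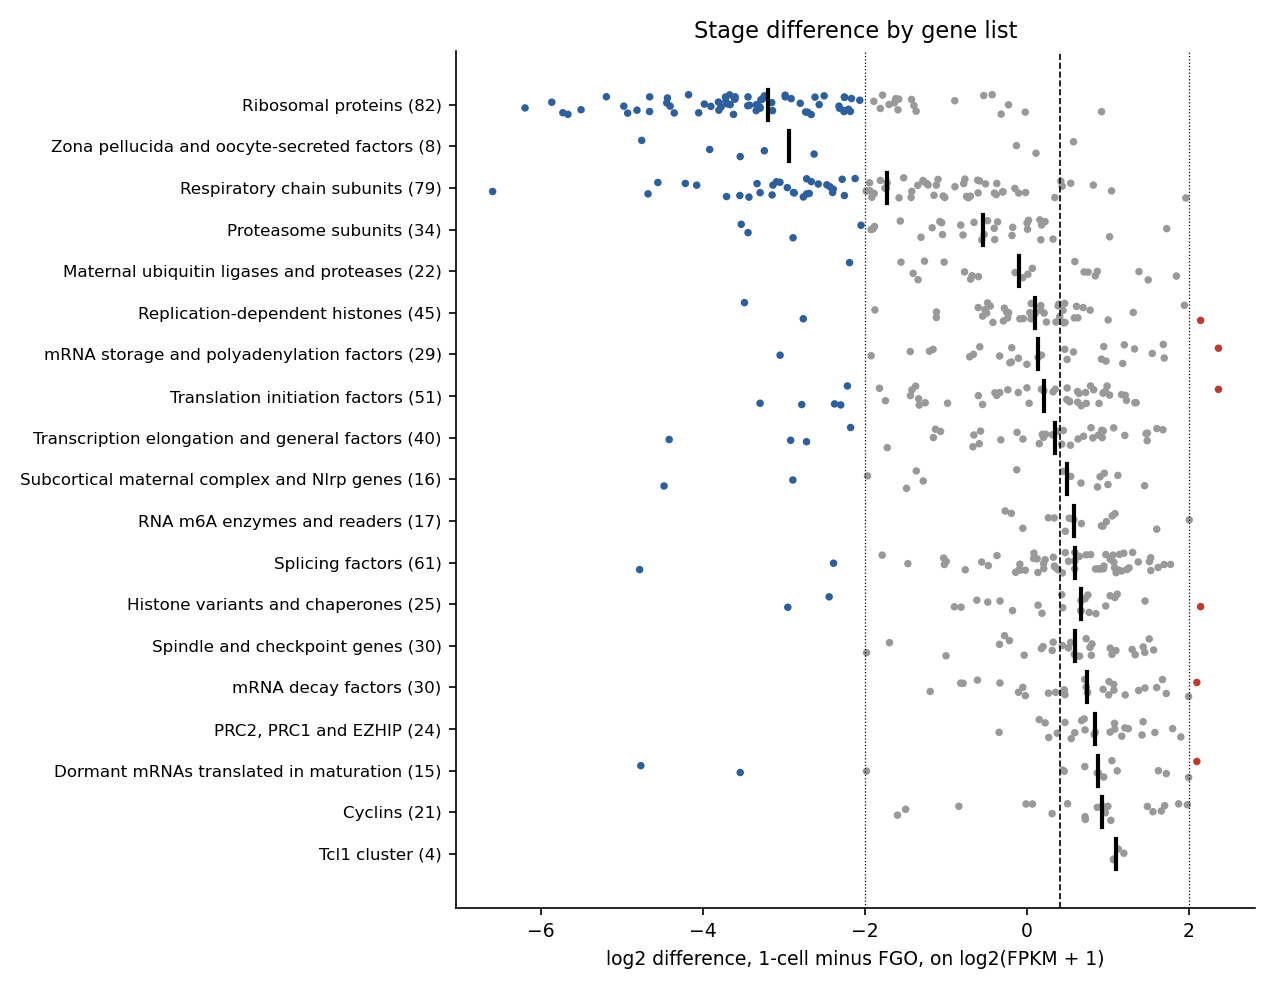
Log2 difference of each kept gene between 1-cell and FGO libraries (x axis, on log2(FPKM + 1)) for 19 gene lists, with the number of kept genes after each name. Blue points were called lower, red points higher and grey points not called; black bars are list medians, the dashed line the median of all genes (0.41) and the dotted lines the threshold of 2. Ribosomal protein, zona and respiratory chain genes lie farthest to the left.

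Most genes of early genome activation were near the floor at both stages. Of 30 such genes with values at both stages, 21 were under 1 FPKM in every library and 8 were kept. Of the kept genes 0 were called, beside 3.83% of all genes, with a median of 0.36. The list summed to 379 to 443 FPKM in oocytes and to 329 to 505 in embryos, and nearly all of it was the nuclear body protein gene Sp110 (130.4 to 181 against 182 to 230.2) and the arginase gene Arg2 (228 to 292 against 135 to 261). Dux, a transcription factor that turns on genes of the 2-cell stage, was at 0 to 0.0515 FPKM in oocytes (median 0) and at 0 to 2.77 in embryos (median 1.03), a difference of 0.99 (SE 0.26). A 1-cell library was at 0 too, so the stages overlapped. Markers of the late 2-cell embryo, 9 genes with Zscan4c and Zfp352 among them, summed to 0.848 to 7.84 FPKM in oocytes and to 2.63 to 8.02 in embryos over the 7 of them in both tables. Of 3 kept Obox genes, homeobox genes with maternal and 2-cell members, 0 were called, beside 3.83% of all genes. Obox1 was at 878 to 3111 against 1349 to 1484 FPKM (-0.30, SE 0.31), and its direction turned with the oocyte set, from -0.93 against libraries 1 to 4 to 0.55 against libraries 5 to 7. Ldhc, the lactate dehydrogenase of sperm and eggs, was called lower, with 4.13 to 19.9 against 0.960 to 2.06 FPKM (-2.04, SE 0.33), but the call was lost against oocyte libraries 1 to 4 (-1.50).

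Transcript length went with the stage difference. By GENCODE M21, 8910 of 9305 genes (95.8%) matched a transcript, and the median length was 1110.0 bases in genes called lower, 3074.5 in genes called higher and 2853 in the rest. The median difference was -0.45 in transcripts under 1000 bases and 0.64 in those of 4000 or more. Ribosomal protein genes were lower than others of like length: under 1000 bases their median was -3.43, beside -0.33 for other genes, and from 1000 to 1499 bases it was -2.53 beside -0.10. Outside that family genes with a CPE were above genes without one in every length class, by medians of 0.28 against -0.60 under 1000 bases and of 0.73 against 0.61 at 4000 or more. Length, tail and library preparation were not separated here, and their part in the stage difference was not tested.

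**Figure D5:**
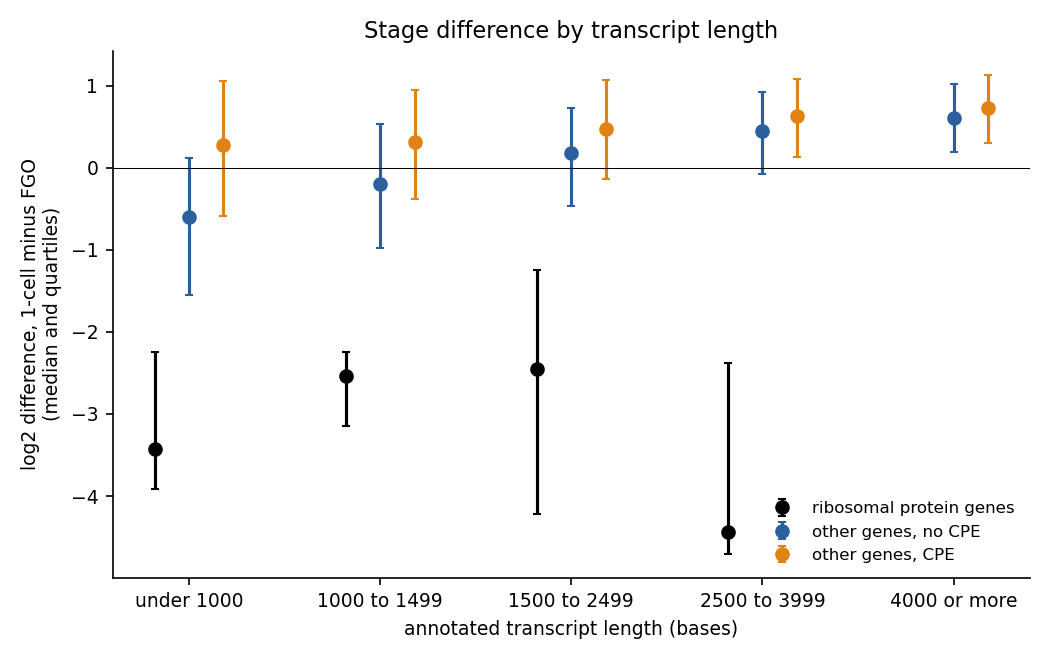
Median and quartiles of the log2 difference between 1-cell and FGO libraries (y axis, on log2(FPKM + 1)) by annotated transcript length (x axis) for ribosomal protein genes (black), other genes with no CPE in the last 100 bases (blue) and other genes with one (orange). Classes with under 3 genes are left out. Black points stay below -2 in each class shown, and orange points lie above blue points in each.

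No gene passed a test of whether the effect of the knockout differed between the stages. The difference between the stages in the effect of the knockout, (mKO minus WT) at the 1-cell stage minus (KO minus WT) in oocytes, lies within each table and was tested with limma on all 13 libraries. None of 9305 genes (0%) passed an adjusted p of 0.05, and the smallest adjusted p was 0.9999. An unadjusted limma p below 0.05 was found in 15 genes, far fewer than chance alone gives at that threshold. This fit left the library sets in the spread, and with the set as a term 377 genes were below 0.05 and 0 passed. The fit therefore cannot show that the effect of the knockout was alike at the 2 stages. For Ezhip the difference of effects was 0.73 (SE 0.65, limma adjusted p = 0.9999). The smallest p-values belonged to short non-coding RNAs and low genes. Snora68 (2.55, SE 0.72) and Mcts2 (1.38, SE 0.53) had the smallest with a higher difference, the latter with 1 mKO library above the rest, and Snord33 (-1.27, SE 0.32) and Mir5133 (-1.96, SE 0.62) with a lower one, each with a limma adjusted p of 0.9999. Of the 307 lower genes 274, 294 and 288 had a difference of -2 or lower in WT, heterozygous and knockout libraries taken alone, and of the 49 higher genes 36, 41 and 42 had 2 or more. The call rule had used these same libraries and required no overlap, so the direction in each genotype was fixed in advance. These counts cannot show that the stage difference was alike in the genotypes.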

How the data were processed

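The deposited values are FPKM per gene and library, per the labels. The submitters' processing notes name the aligner HISAT2 2.2.1, the counter HTSeq 0.6.0, the trimmer Trim Galore 0.4.2 and the builds mm9 and hg19 with no role. Strand, annotation and the tool that made FPKM were not stated in the sources used. FPKM are shares of a library, so abundant RNA lowers all others. Depth is unknown, because low values were not whole multiples of a common step (the ratio found most often between a pair of libraries held in 8.96% of genes or fewer).

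All 14055 genes of the 1-cell table are in the FGO table, which holds 10001 more that took 5.47 to 6.13% of its summed FPKM. Rn45s was removed, columns were rescaled to the median total, genes at 1 FPKM in at least 2 libraries were kept and log2(FPKM + 1) was taken, which understates differences of low genes. Stages were compared by the call rule, with no test. The genotype contrast was fitted with limma 3.58.1 in R 4.3.3 (eBayes with a trend) and adjusted by Benjamini and Hochberg over all genes. Both steps were also run on simulated data with independent noise in each library. That noise held no library sets, so the runs cannot show how the steps behave with them. Sequence features came from GENCODE M21 and RefSeq, read with Python 3.11.15. Libraries are replicates by the labels alone, so the spread may be technical.

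The comparison, members, lists, library sets and rule for named genes were chosen with earlier results of these data known. The rule took Ezhip, the 15 genes in each direction with the largest difference among those called with a mean of 10 FPKM or more in the higher stage, called in WT alone and not predicted or clone-named models. Of each list it took up to 5 called members (8 for lists close to the transition), or else the 2 with the largest difference, and for the genotype contrast the pair of smallest p on each side. Some genes that the rule took are not reported here. Other genes named were chosen after their values were seen: Bmp15, Ccnb1, Btg4, Spin1, Cnot6l, Cnot7, Orc6, Rpl15, Rps27l, Rps18, Rpl35, Nlrp5, Ooep, Zar1, Slbp, Eif1ax, Ccna2, Ezh2, Suz12, Eed, Tcl1, Gm1965, Lars2, Sp110 and Arg2.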

Additional observations from a re-analysis of the deposited data

Results flagged for a closer look

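Single libraries stood apart from the rest of their stage in 7 of 247 groups of named genes (2.83%), by a gap larger than Dixon's test allows at the 95% level; chance gives about 1 in 20. In the 1-cell mKO replicate 1, H1foo was at 1319 FPKM, beside 508 to 663 in the other 5 libraries, Cd9 at 15.6, beside 26.1 to 34.1, and Psmc4 at 12.9, beside 18.3 to 21.6. In FGO WT replicate 1, Nsun3 was at 1.14 FPKM, beside 3.61 to 7.21 in the other 6. In FGO KO replicate 3, Uqcrq was at 212 FPKM, beside 191 to 198. In FGO Het replicate 1, Dux was at 0.0515 FPKM, beside 0 to 0.0165. In 1-cell mKO replicate 2, Mcts2 was at 1.63 FPKM, beside 0.0775 to 0.347 in the other 5.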

How the results depend on the processing

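The count of lower genes held better than that of higher genes. With each library left out in turn, 288 to 335 genes were lower and 31 to 92 higher, and of the genes called over all libraries 284 to 307 and 31 to 49 were kept. The higher count passed 1.5 times either way without FGO WT replicate 1 (32), WT replicate 2 (86), Het replicate 1 (31), Het replicate 2 (85) or KO replicate 3 (92). A pseudocount of 0.1 gave 215 higher (438 lower) and values that were not rescaled 26 (344 lower). Median ratio scaling moved the median of all genes from 0.41 to 0.03 and gave 3 higher and 496 lower, so higher genes were 0.601% of calls instead of 13.8%. FGO libraries 1 to 4 gave 432 higher and FGO libraries 5 to 7 gave 4 higher and 516 lower. A log2 difference of 3 or more left 1 higher and 104 lower. Chosen after seeing the data, 1-cell libraries 8 to 10 alone gave 103 higher and 389 lower, and libraries 11 to 13 gave 45 and 247. Of 125 genes run one by one, 70 of them called, no called one turned its direction. Where the setting was a subset of the same libraries, the rule of no overlap fixed that direction in advance. Of 53 lower calls among them 4 were lost against oocyte libraries 1 to 4 and 4 against libraries 5 to 7, and of 17 higher calls 0 and 15. Of 2749 values of these genes, 202 moved by more than the spread between libraries. None of the moved values came from leaving a single library out. Median ratio scaling moved 65 genes and left 59 within the spread, and FGO libraries 5 to 7 alone moved 55 and left 70. The cause was not tested.

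In the genotype contrast 0 genes passed under each alternative but the fit without a filter on low values, where 1 of 13741 genes passed (Mir294, limma adjusted p = 0.0001325). With the replicate block 0 genes passed (817 at an unadjusted p below 0.05), and with the library set as a term 0 (377). Same-numbered libraries deviated together at the 1-cell stage (correlations across genes of 0.49 to 0.54) but not throughout in FGO (-0.32 to 0.73). The replicate numbers were therefore not taken as pairs. In FGO the deviations followed the library sets. Between genotypes, all correlations within a set were positive and all across sets negative. FGO KO replicate 2 was at 0.32 with WT replicate 1 of its own set and at -0.32 with WT replicate 2. In a group of 2 libraries the deviations are mirror images, which holds for WT and Het oocytes and for all 1-cell groups. Each negative value here thus repeats a positive one with the sign turned and is no further evidence. The main fit had no term for the set, so its spread holds this difference.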

Other observations

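Some abundant oocyte genes were listed in the FGO table alone and have no 1-cell value here. Of these, 155 had a mean of 10 FPKM or more in oocytes. Among them were the secreted egg proteins Oosp3 (1989 FPKM) and Oosp2 (1057), the oocyte transcription factors Nobox (177) and Figla (25.2), the protease Astl that cleaves Zp2 (80.6) and the sperm receptor Izumo1r (164).

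Gapdh, often used as a reference gene, had 1-cell levels from 0.329 to 26.3 FPKM (median 10.5), while the 7 oocyte libraries lay between 17.6 and 24.0. It was not called (-1.71, SE 0.87). Pkm, which acts at the end of glycolysis, was at 61.0 to 136 against 13.0 to 37.2 FPKM (-1.65, SE 0.25). Of 16 glycolysis genes 0 were called, beside 3.83% of all genes, and the median was -0.19, beside 0.41 for all genes.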
